A study of Mus musculus with 6 samples.

Results

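The genes described here control G1 upstream of the E2F transcription factors. They are the D cyclins Ccnd1, Ccnd2 and Ccnd3, their kinases Cdk4 and Cdk6, the pocket proteins Rb1, Rbl1 and Rbl2, and the CDK inhibitors Cdkn1a and Cdkn1b. The members were these 10 genes of the 12393 genes that had a probe set with a single symbol in the platform annotation. Every probe set carrying only one of the 10 symbols was taken, which gave 24, and the one with the highest mean signal over the 6 arrays is called the main probe set of its gene. The genes were chosen by their role and with the KO minus Het differences of these same arrays in view, that of Ccnd1 above all, so these differences are a description and nothing is supported with them.

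Affymetrix mouse arrays were run on 6 lung metastases from FVB mice. Every mouse carried MMTV-Myc, in which a viral promoter active in mammary epithelium drives Myc. Per the labels, 3 metastases had the genotype Myc E2F2 KO (KO) and 3 had Myc E2F3 Het (Het); metastases of MMTV-Myc mice with neither E2F allele altered were not analysed here, and no ages of the mice are in the labels. The 3 Het titles share a number and end in LM2, LM1 and LM3 for replicates 1, 2 and 3, whereas the KO titles carry 3 different numbers, so the Het arrays may be 3 metastases of 1 mouse and genotype and mouse of origin cannot be told apart.

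In background terms, mitogens raise the D cyclins, which bind CDK4 or CDK6 and phosphorylate the retinoblastoma family. Unphosphorylated pocket proteins hold E2F factors and repress their targets, and phosphorylation releases E2F so that cells enter S phase. The CIP/KIP inhibitors p21 (Cdkn1a) and p27 (Cdkn1b) block cyclin E-CDK2 and also bind cyclin D complexes. In the mouse mammary gland, cyclin D1 is needed for full lobuloalveolar development, and mice without it resist tumours driven by Neu or Ras but not those driven by Myc.

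All arrays had been scaled to a trimmed mean signal of 500.2, and no depth applies to array signals. One array, Het replicate 1, had raised 3' to 5' signal ratios, a measure of RNA shortening. For the transferrin receptor it was 3.48 to 4.26 on the KO arrays, against 11.8 in Het replicate 1 and 3.25 and 5.15 in the other Het arrays. The rise was smaller for actin, at 2.375 in Het replicate 1 and 1.48 to 1.73 on the other arrays. It was slight for Gapdh, at 0.93 in Het replicate 1 and 0.75 to 0.90 on the other arrays. No level of E2f2 was used here, and its loss was therefore not checked. The E2f3 signal averaged 107 ± 26.8 in KO metastases, against 101 ± 37.7 in Het ones (SD, n = 3 arrays each); the position of its probe set relative to the altered allele was not examined. Summed signals of 10 luminal mammary markers such as Krt8 and Epcam ran from 48312 to 52990.4 in KO and from 49789 to 58914 in Het metastases. These sums overlapped, but the mean log2 level per marker, centred on the mean of all arrays, did not. It was -0.12, -0.16 and -0.07 in KO, against -0.01, 0.27 and 0.09 in Het metastases, a difference of -0.23. On that measure every KO array lay below every Het array, and the difference was not tested. The 9 lung alveolar markers measured summed to 13464 to 68596 in KO and 20462 to 32583 in Het metastases. These markers were chosen for alveolar cells of the host lung. Whether other cells of the tissue also carried the alveolar or the luminal markers was not examined. In bulk tissue, fewer cells of a type and less RNA per cell cannot be told apart.

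The promoters of the 3 members below are shown because each carries a site of a factor of this circuit: an E2F site in Rbl1, E-boxes bound by Myc in Cdk4, and a p53 site in Cdkn1a. The windows hold the 250 bases before a RefSeq gene start on the GRCm38.p6 assembly, read 5′ to 3′ on the strand of the gene, and matches are in capitals. RefSeq promoters were matched for 7 of the 10 members; those of Ccnd1, Ccnd2 and Rb1 are not shown.
Rbl1, chr2:157204535-157204784, minus strand: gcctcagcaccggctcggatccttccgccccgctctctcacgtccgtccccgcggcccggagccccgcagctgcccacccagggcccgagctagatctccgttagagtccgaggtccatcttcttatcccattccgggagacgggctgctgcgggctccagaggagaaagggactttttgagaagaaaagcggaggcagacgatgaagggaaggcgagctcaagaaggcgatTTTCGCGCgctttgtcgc
Cdk4, chr10:127063285-127063534, plus strand: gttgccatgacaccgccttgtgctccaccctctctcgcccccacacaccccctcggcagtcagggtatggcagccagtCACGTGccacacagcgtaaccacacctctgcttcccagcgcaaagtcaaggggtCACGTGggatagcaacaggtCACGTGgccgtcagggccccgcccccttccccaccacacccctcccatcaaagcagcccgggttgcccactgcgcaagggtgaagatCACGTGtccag
Cdkn1a, chr17:29090729-29090978, plus strand, the upstream one of 2 starts: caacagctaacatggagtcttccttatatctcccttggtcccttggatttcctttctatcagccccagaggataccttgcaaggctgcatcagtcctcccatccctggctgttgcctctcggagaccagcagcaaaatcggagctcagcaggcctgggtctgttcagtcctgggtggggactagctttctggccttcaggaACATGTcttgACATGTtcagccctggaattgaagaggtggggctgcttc
Both strands were searched. The E2F letters were TTTCCCGC, TTTCGCGC, TTTGCCGC and TTTGGCGC. Rbl1, a textbook E2F target, had 1 match at 18 bases before its start, and 1.86% of 32851 promoter windows had any. The E-box CACGTG, a palindrome, occurred 4 times in the Cdk4 window, at 172, 118, 98 and 11 bases before the start; 6.02% of windows held at least 1 copy and 0.0213% held 4 or more. Cdk6 had 1 copy, at 220 bases. The palindrome ACATGT, the core of the p53 site, occurred at 49 and 39 bases before the upstream start of Cdkn1a, and 0.247% of windows held 2 or more. None of the other member windows held a match to these letters. These matches describe letters and are not evidence that a factor was bound.

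Among the 10 genes, Ccnd1 had the largest difference between the groups, about 2.52-fold higher in KO metastases. On the main probe sets of Rb1, Rbl1 and Cdkn1b every KO array lay below every Het array, by smaller amounts. This was so for 8.91% of all probe sets tested, and a second Rbl1 probe set overlapped, at a log2 difference of 0.01. Cdk4 and Rbl2 lay at like levels in both groups. None of these differences passed the test. Signals are the authors' MAS5 values on a linear scale, and differences are KO minus Het of log2(signal + 16), which understates dim genes. The test was limma over 13575 probe sets, with the Het arrays averaged into 1 sample, Benjamini-Hochberg adjustment and a threshold of 0.05. Here 0% of all probe sets passed, and 0 of the 19 member probe sets bright enough to be tested did. Their adjusted p was 0.9999 in each case. At an unadjusted p under 0.05, limma gave 2.22% of all probe sets and 4 of the 19 members' probe sets, of which 3 were those of Ccnd1 and 1 was the dimmer one of Cdkn1a. With each array as a sample, the lowest limma adjusted p of a member was 0.34, for Ccnd1, and 0% of all probe sets passed; 10.3% of all and 5 of the 19 then had an unadjusted p under 0.05. In the main fit the Het arrays form 1 sample, so its SE and p-values rest on the spread between the 3 KO arrays. Variance is also shared across probe sets, but the spread between the Het arrays does not enter. For the dimmer Cdkn1a probe set the SE was 0.40 in that fit and 0.58 with each array as a sample. The KO titles carry different numbers, but the labels do not state that the arrays are separate animals. Part of the spread between arrays may be technical.

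**Figure D1:**
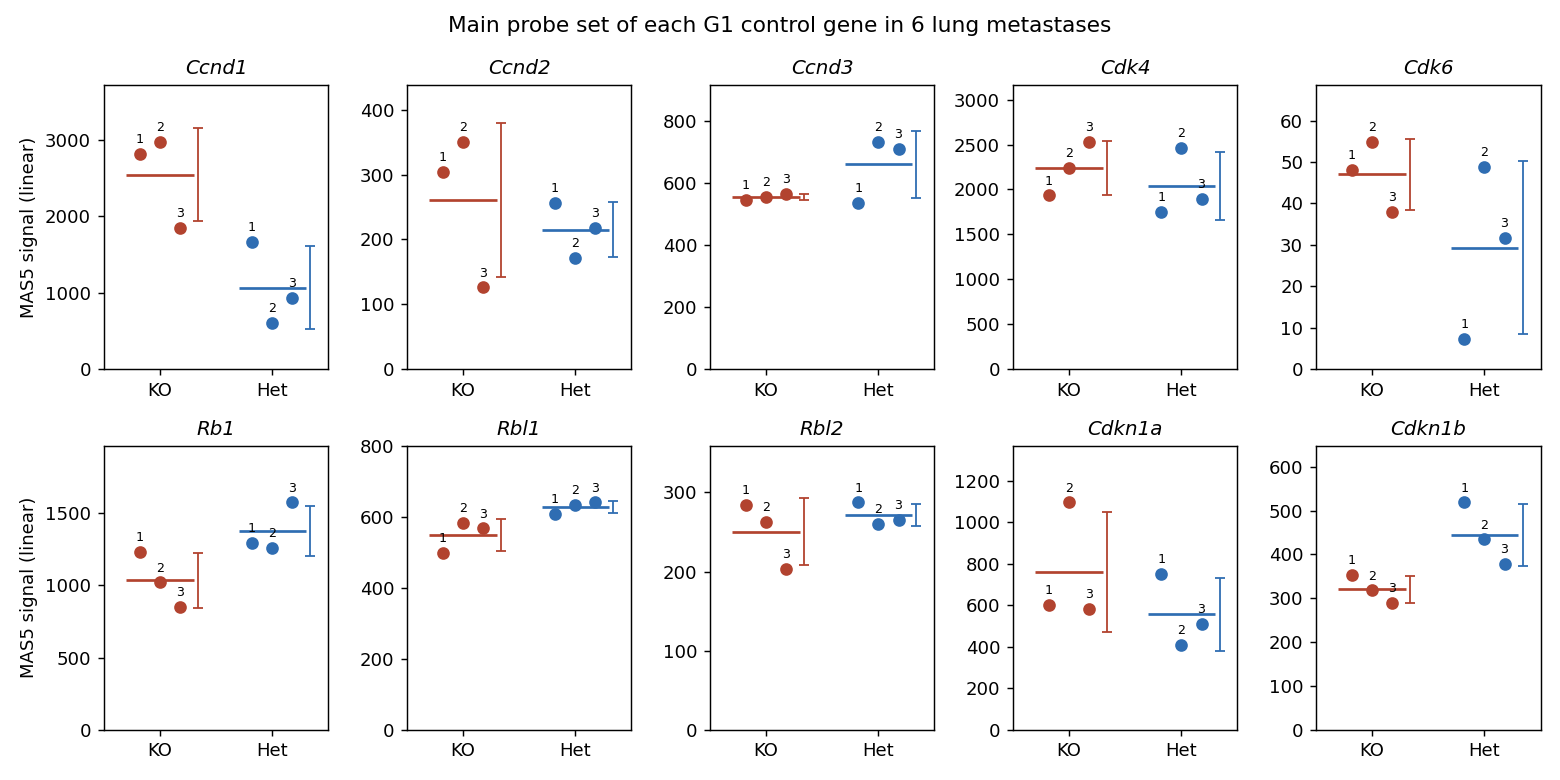
MAS5 signal on a linear scale of the main probe set of each of the 10 genes in KO (red, left) and Het (blue, right) metastases. Points are arrays with their replicate number, horizontal lines are group means and bars beside them are SD (n = 3 arrays each). The groups do not overlap for Ccnd1, Rb1, Rbl1 and Cdkn1b, beside 16.7% of all probe sets tested.

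Cyclin D1, which activates CDK4 and CDK6 and is a frequent driver in mammary tumours, was the D cyclin that differed most. The main Ccnd1 probe set (1417420_at) had signals of 2820.3, 2981 and 1849.9 in KO replicates 1, 2 and 3, against 1661, 605 and 933 in Het replicates 1, 2 and 3. Every KO array lay above every Het array, though KO replicate 3 was only a little above Het replicate 1. The mean was 2550.2 ± 612 for KO, against 1067 ± 541 for Het (SD over 3 arrays), a log2 difference of 1.33 (SE 0.32). The Het arrays were themselves spread over 2.75-fold from lowest to highest, and the KO arrays over 1.61-fold.

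Both other Ccnd1 probe sets gave the same direction. The one named 1417419_at had 1211, 1524 and 809 in KO, against 554, 343 and 429 in Het metastases, a log2 difference of 1.36 (SE 0.38) with no overlap. The one named 1448698_at had 1157, 1349.6 and 1006 in KO, against 1007, 386 and 506 in Het metastases, a log2 difference of 0.98 (SE 0.26). On that probe set, KO replicate 3 and Het replicate 1 were nearly equal and in the opposite order, so the groups overlapped by this small margin. The 3 probe sets ran in parallel over the 6 arrays, with Pearson's r of 0.90 to 0.98 between them. They interrogate one transcript and are not independent measurements.

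As the groups did not overlap on the main Ccnd1 probe set, leaving out 1 array could not turn the sign of its difference. Only the size is described, and it does not address the number shared by the Het titles. The difference was 1.71 without Het replicate 1, the array with the raised 3' to 5' ratios and the highest Het signal of Ccnd1. Without Het replicate 2, which had the lowest, the difference was 0.99. Leaving out a KO array gave 1.21 to 1.55. A log2 difference of at least 1 with every KO array above every Het array was seen for 2 member probe sets, both of Ccnd1, and for 0.832% of all probe sets tested. Since Ccnd1 was chosen for its difference, nothing is read from that share.

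The genes beside Ccnd1 on its chromosome were also examined. The RefSeq gene table held 14 protein-coding neighbours within 10 places of Ccnd1, of which 9 had a probe set and 5 were bright enough to be tested. Their median log2 difference was 0.01, with 3 higher and 2 lower in KO, and none passed the test. LTO1, the gene next to it on one side, had 233, 245 and 208 in KO, against 265, 206 and 211 in Het metastases (log2 difference 0.01, SE 0.26). Tpcn2, which encodes an endolysosomal channel and lies on the other side, was also at 0.01 (SE 0.36). Cttn, which encodes the actin regulator cortactin, was at -0.01 (SE 0.21), and Ano1, a chloride channel gene, at 0.19 (SE 0.27). Fadd, a death receptor adaptor gene, went the opposite way to Ccnd1, with 184, 186 and 161 in KO, against 209, 241 and 205 in Het metastases (log2 difference -0.28, SE 0.27). The 5 differences ran from -0.28 to 0.19, and the difference between them and Ccnd1 was not tested. Since Ccnd1 was chosen for its difference, nothing is read from their smaller size.

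Over the 6 arrays, the single-gene probe sets most like Ccnd1 in pattern were those of Gja1 (Pearson's r 0.99), the connexin 43 gene, Srpk2 (r 0.99), a splicing factor kinase gene, and Phyh (r 0.98), Eif4e3 (r 0.98) and C1s1 (r 0.98). C1s1, a complement gene, had 206, 254 and 122 in KO, against 125, 51.6 and 77.8 in Het metastases. Of the 12531 probe sets compared, 225 had r above 0.9. The points share the group difference and, for Het, the number in the titles.

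The levels of Ccnd1 also moved with several marker lists of other cells, and opposite to the luminal list. The 8 fibroblast markers, of which 7 were bright enough to be tested, summed to 9853, 8493 and 7069 in KO, against 6248, 5960 and 5937 in Het metastases, without overlap. The 10 endothelial markers summed to 1682 to 4379 in KO and 1831 to 3331 in Het metastases, and the alveolar list was lowest of all in KO replicate 3, where Ccnd1 stood above every Het array. Over the 6 arrays, the log2 level of Ccnd1 had r of -0.98 with the luminal list. It had r of 0.78 with the fibroblast list, 0.72 with the endothelial list and 0.64 with the alveolar list. With the dim lymphocyte list r was 0.67, with the macrophage list -0.14 and with the basal list -0.04. Ccnd1 was chosen for its group difference, and the luminal and fibroblast means per marker also separated the groups. Those values of r therefore partly restate KO against Het. In each r over the 6 arrays, here and below, the points share any group difference and, for Het, the number in the titles. The part of these cells in the Ccnd1 difference was not tested.

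**Figure D2:**
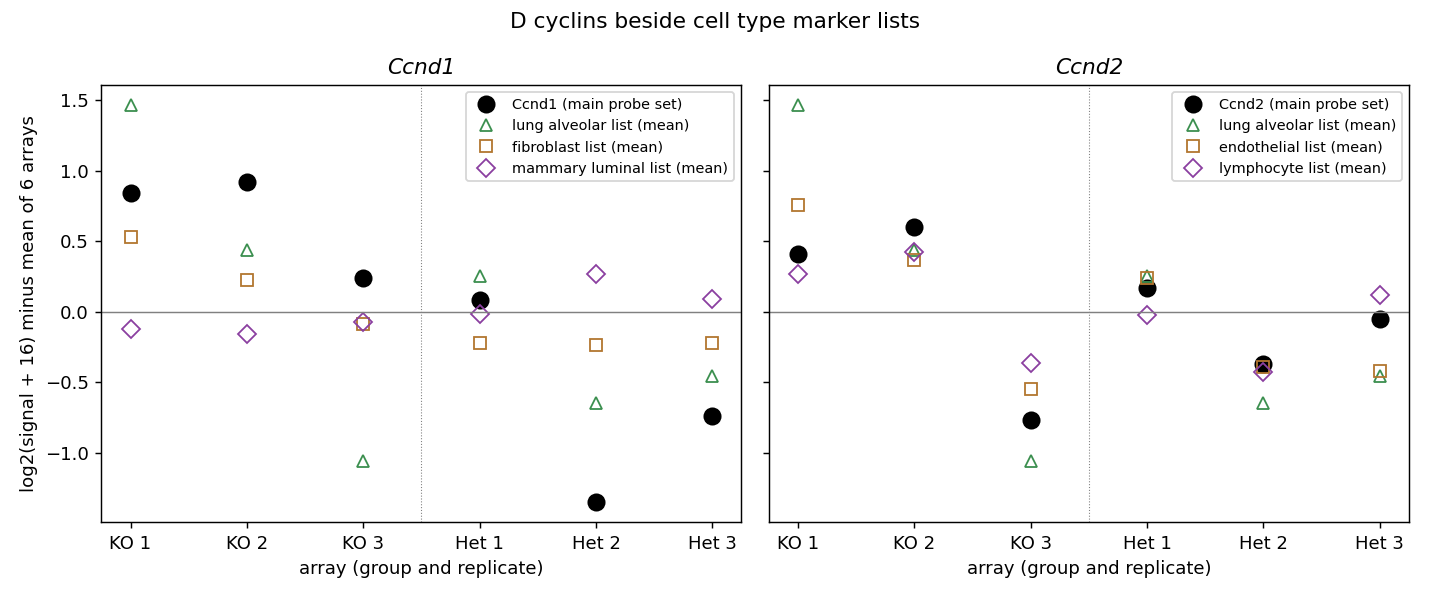
Log2(signal + 16) minus the mean of the 6 arrays, for Ccnd1 (left panel) and Ccnd2 (right panel) as filled points, beside the mean of the same quantity over marker lists as open symbols. KO arrays are left of the dotted line and Het arrays right of it. KO replicate 3 is the KO array in which Ccnd2 falls below all Het arrays, as does the lung alveolar list.

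Cyclin D2, a prominent D cyclin of B cells and of ovarian granulosa cells, had 7 probe sets, of which 4 were bright enough to be tested. The main one (1434745_at) had signals of 304, 351 and 126 in KO, against 256, 171 and 217 in Het metastases. KO replicates 1 and 2 were the highest and KO replicate 3 the lowest of all 6 arrays, so the groups overlapped fully. The log2 difference was 0.16 (SE 0.57) and turned to -0.10 without KO replicate 2, while it was 0.59 without KO replicate 3. It was 0.0014 without KO replicate 1, 0.29 without Het replicate 1 and 0.02 without Het replicate 2. The next brightest probe set (1416122_at) had 331, 405 and 152 in KO, against 191, 159.7 and 161 in Het metastases, a log2 difference of 0.64 (SE 0.54). The other 2 that were tested were at 0.51 (SE 0.60) and 0.36 (SE 0.52), and in all 4 the spread of the KO arrays was wider than the difference. Leaving out KO replicate 3 raised these last 3 differences to 1.04, 0.95 and 0.73, and their lowest values were 0.38 and 0.27 without KO replicate 2 and 0.14 without Het replicate 3. The 3 dim probe sets had signals of at most 80.9 on every array.

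The Ccnd2 level moved with marker lists of other cells. Its main probe set had r over the 6 arrays of 0.86 with both the alveolar and the endothelial list and of 0.91 with the lymphocyte list, which was itself dim (7 markers, none bright enough to be tested, summed to 125 to 323 in KO and 109 to 209 in Het metastases). Their part in the Ccnd2 level was not tested.

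Cyclin D3 had 1 probe set. Ccnd3 had signals of 545, 554 and 564 in KO, against 537, 733 and 710.2 in Het metastases. The KO arrays lay within 1.04-fold of each other, and Het replicate 1 was as low as they were, whereas the other two Het arrays were higher. The log2 difference was -0.23 (SE 0.22), -0.37 without Het replicate 1 and -0.15 without Het replicate 2. Ccnd3 ran opposite to Ccnd1 over the 6 arrays (r = -0.91). With the luminal list Ccnd3 had r of 0.89, and with the macrophage list 0.32. It had r of -0.65 with the endothelial, -0.56 with the fibroblast and -0.53 with the alveolar list. With the lymphocyte and basal lists r was -0.41 and -0.16. Their part in the Ccnd3 level was not tested.

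Of the kinases, Cdk4 was at like levels in both groups and Cdk6 was too dim to be tested. Cdk4, the main kinase of cyclin D in epithelium, had signals of 1934, 2242 and 2532 in KO, against 1751, 2465 and 1898 in Het metastases on its main probe set (1422441_x_at). The groups overlapped, with a log2 difference of 0.14 (SE 0.23). Leaving out Het replicate 1 or KO replicate 3 gave 0.04 and 0.05, and leaving out KO replicate 1 or Het replicate 2 gave 0.24 and 0.28. The suffix of this probe set means that some of its probes may match other sequences. The other 2 Cdk4 probe sets were at -0.05 (SE 0.23) and 0.08 (SE 0.29), so all 3 lay within their SE of 0. Myc, whose E-box occurs 4 times in the Cdk4 window above, also overlapped between the groups, with 11557 ± 1373 for KO, against 12712 ± 1229.5 for Het (SD over 3 arrays).

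Cdk6, the other cyclin D kinase, is prominent in blood cells. Its single probe set had 48.1, 54.9 and 38.0 in KO, against 7.34, 48.9 and 31.7 in Het metastases. The value of 7.34 belonged to Het replicate 1, the array with the raised 3' to 5' ratios. The log2 difference of 0.59 was 0.17 without that array and 0.91 without Het replicate 2. It also moved with the pseudocount, to 0.99 with 1 and 0.27 with 64 in place of 16.

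**Figure D3:**
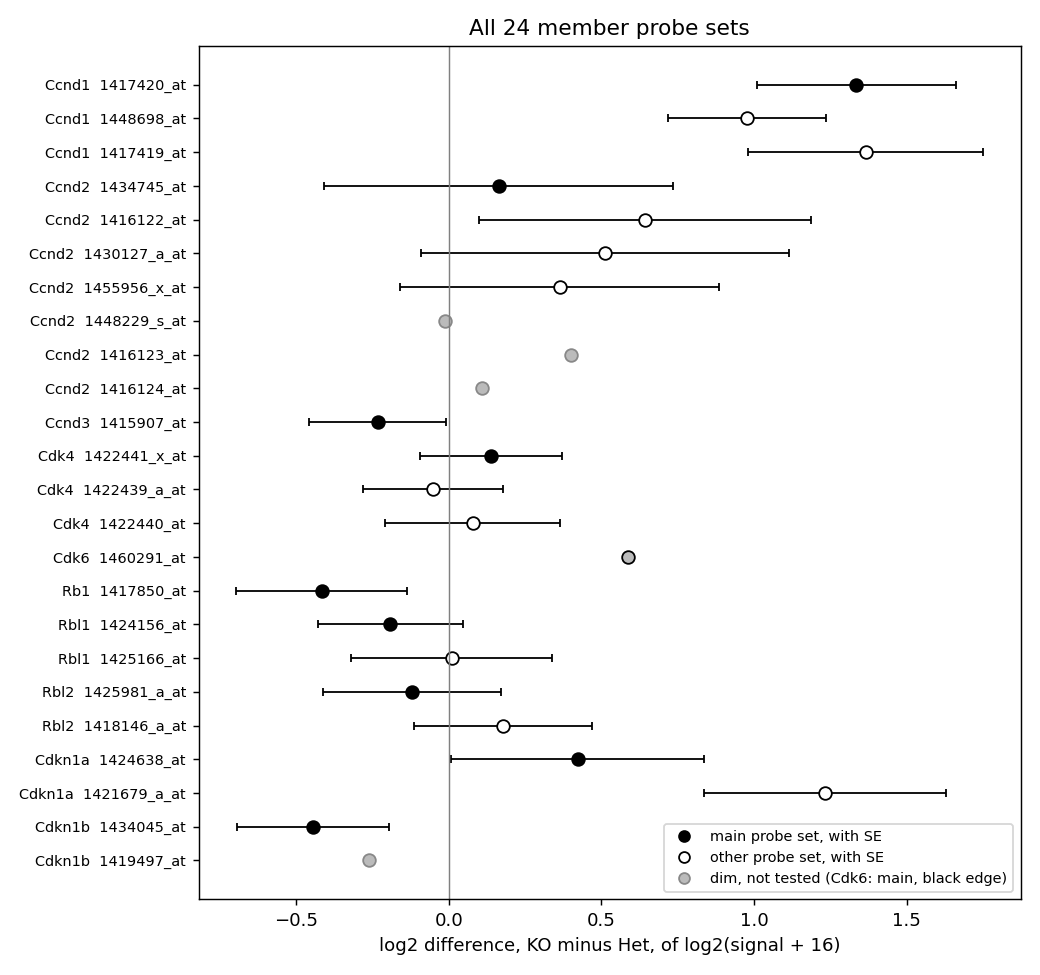
Log2 difference, KO minus Het, of log2(signal + 16) for all 24 probe sets of the 10 genes, with the SE of the limma fit as bars. Filled black points are main probe sets, open points the others, and grey points the 5 dim ones without a test. The 3 Ccnd1 probe sets lie at 0.98 to 1.36, the dimmer Cdkn1a probe set at 1.23, and the other tested ones between -0.44 and 0.64.

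The pocket protein genes had lower mean signals in KO metastases on their main probe sets, and none passed the test. Rb1, the retinoblastoma protein that restrains the activating E2Fs, had signals of 1232, 1020.3 and 851 in KO, against 1295, 1261 and 1575 in Het metastases. Its groups did not overlap, but KO replicate 1 and Het replicate 2 were close. The log2 difference was -0.42 (SE 0.28), and -0.29 without KO replicate 3 and -0.55 without KO replicate 1.

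Rbl1, which encodes p107, a partner of the repressive E2Fs that accumulates in cycling cells, had 499.6, 583 and 569 in KO, against 611, 636 and 642 in Het metastases. The Het arrays lay within 1.05-fold of each other and above all KO arrays. The log2 difference was small, at -0.19 (SE 0.24), and was -0.12 without KO replicate 1. A second and dimmer Rbl1 probe set had 78.4, 88.0 and 97.9 in KO, against 89.5, 100.3 and 73.1 in Het metastases, a log2 difference of 0.01 (SE 0.33), so it did not show the separation of the first. Over the 6 arrays, the main Rbl1 probe set had r of -0.90 with the fibroblast list, which also separated the groups. It had r of -0.68 with both the alveolar and the endothelial list and -0.37 with the lymphocyte list. With the luminal, basal and macrophage lists r was 0.71, 0.60 and 0.54. Their part in the Rbl1 level was not tested.

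Rbl2, which encodes p130, the pocket protein of resting cells and of the DREAM repressor, had 285, 263 and 203 in KO, against 287, 261 and 266 in Het metastases. Apart from KO replicate 3 the arrays were alike, and the log2 difference was -0.12 (SE 0.29). Leaving out KO replicate 3 gave 0.01, KO replicate 1 gave -0.21 and Het replicate 1 gave -0.08. On the main probe set, Rbl2 had r of 0.72 with the alveolar and 0.67 with the endothelial list. With the lymphocyte, macrophage and fibroblast lists Rbl2 had r of 0.54, 0.51 and 0.23. With the luminal and basal lists r was 0.06 and -0.07, and the part of these cells in the level of Rbl2 was not tested. Its second probe set pointed the other way, with 134, 118 and 131 in KO, against 98.4, 131 and 106 in Het metastases (log2 difference 0.18, SE 0.29), and was at 0.10 without Het replicate 1 and 0.28 without Het replicate 2.

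The 2 CDK inhibitors had differences of opposite sign. Cdkn1a, the p53 target that arrests cells after DNA damage and is repressed by Myc in several cell types, had signals of 603, 1095 and 583 in KO, against 752, 409.9 and 508 in Het metastases on its main probe set. KO replicate 2 was highest by a wide margin and the other KO arrays lay among the Het arrays. The log2 difference was 0.42 (SE 0.41), 0.13 without KO replicate 2, 0.23 without Het replicate 2 and 0.66 without Het replicate 1.

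The dimmer Cdkn1a probe set (1421679_a_at) had 123, 183 and 105 in KO, against 124, 8.75 and 58.6 in Het metastases. Here the difference was 1.23 (SE 0.40), but Het replicate 1 lay at the level of the KO arrays and Het replicate 2 was far lower. Leaving out Het replicate 2 gave 0.55, and leaving out Het replicate 1 gave 1.80; this is the array with the raised 3' to 5' ratios. With a pseudocount of 1 it was 1.69, and with 64 it was 0.74. Both Cdkn1a probe sets were in the same order over the Het arrays as Ccnd1. Over all 6 arrays the main probe sets of Cdkn1a and Ccnd1 had r of 0.80. With the luminal list the main Cdkn1a probe set had r of -0.79. It had r of 0.70 with the lymphocyte, 0.57 with the endothelial and 0.48 with the basal list. With the alveolar, fibroblast and macrophage lists r was 0.44, 0.41 and 0.37. Their part in the Cdkn1a level was not tested.

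Cdkn1b, the inhibitor that holds CDK2 in check in resting and differentiating cells, had signals of 353, 318 and 290.1 in KO, against 518, 434 and 377 in Het metastases. All KO arrays lay below all Het arrays, with KO replicate 1 nearest to Het replicate 3. The mean was 320.1 ± 31.4 for KO, against 443 ± 71.0 for Het (SD over 3 arrays), a log2 difference of -0.44 (SE 0.25). It ran from -0.55 to -0.33 when arrays were left out in turn. The second Cdkn1b probe set was dim, at 3.75, 31.8 and 15.9 in KO, against 22.9, 20.7 and 20.3 in Het metastases, and was not tested.

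**Figure D4:**
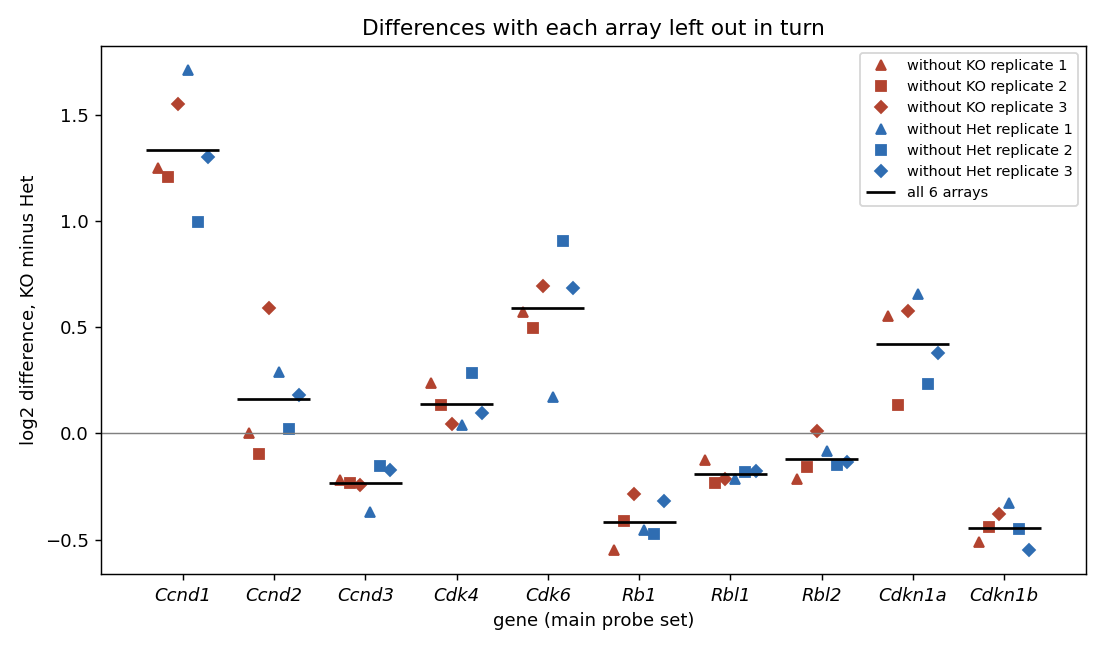
Log2 difference, KO minus Het, of the main probe set of each gene with all 6 arrays (black lines) and with each array left out in turn (red, a KO array left out; blue, a Het array left out). Ccnd1 runs between 0.99 and 1.71, and its sign could not turn because its groups do not overlap. Ccnd2 crosses 0.

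Over the 10 main probe sets, 5 were higher and 5 lower in KO, and the median log2 difference was 0.01, beside -0.02 over all probe sets tested. The 2 sets of arrays were fully separated for 4 of the 10, with 1 higher (Ccnd1) and 3 lower (Rb1, Rbl1 and Cdkn1b) in KO, beside 16.7% of all probe sets tested. Every KO array was above every Het array for 7.82% of all probe sets and below for 8.91%. The members were chosen with these contrasts known, and no inference is drawn from the count. KO replicate 2 was the highest of the 6 arrays for 4 genes, and KO replicate 3 and Het replicate 1 were the lowest for 4 and 3 genes.

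The further genes of the G1 pathway were described by lists. Of 55 genes listed, 49 had a probe set and 47 were bright enough to be tested. With limma, 0 of 47 passed, 15 were higher and 32 lower in KO, and the median log2 difference was -0.09, beside -0.02 over all probe sets tested. For 5 of the 47, every KO array lay below every Het array, beside 8.91% of all probe sets tested, and for 0 every KO array lay above, beside 7.82%. The count of 5 is near the share over all probe sets.

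Among the G1/S kinases and their partners, 4 of 9 were higher and 5 lower in KO, with a median of -0.07. Cdc25a, the phosphatase that activates CDK2, had 437, 489.6 and 557 in KO, against 675, 627 and 671 in Het metastases, without overlap (log2 difference -0.41, SE 0.25). Its second probe set was at -0.01 (SE 0.32). Ccnh, a subunit of the CDK-activating kinase, was at -0.21 (SE 0.18), also without overlap. Its other probe sets, at -0.12 (SE 0.22) and -0.16 (SE 0.30), both overlapped. The E cyclins, which follow cyclin D in G1, went separate ways, with Ccne1 at -0.52 (SE 0.55) and Ccne2 at 0.22 (SE 0.43). The low mean of Ccne1 came largely from KO replicate 1, at 97.5, against 222 and 269 in the other KO arrays.

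Of the other CDK inhibitors, Cdkn2b, Cdkn2c and Cdkn2d were tested, and all 3 were slightly lower in KO, at -0.09 (SE 0.32), -0.33 (SE 0.50) and -0.10 (SE 0.28); these INK4 proteins bind CDK4 and CDK6 and keep cyclin D off. Cdkn1c and Cdkn2a were too dim to be tested. Of the genes that degrade cyclins and inhibitors, 2 of 7 were higher and 5 lower, with a median of -0.20. Ambra1, the substrate receptor through which D cyclins are ubiquitylated, had 243, 233 and 168 in KO, against 354, 247 and 273 in Het metastases. Its groups did not overlap (log2 difference -0.42, SE 0.31). Fbxw7, which targets cyclin E and Myc for degradation, was at -0.26 (SE 0.24), and its second probe set at -0.45 (SE 0.27). Cul1, the scaffold of SCF ligases, was at -0.20 (SE 0.24), and Fbxo31, reported to target cyclin D1, at -0.26 (SE 0.36).

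Genes of the p53 axis were set beside Cdkn1a. Of 6 tested, 1 was higher and 5 were lower in KO, with a median of -0.10. The p53 targets Gadd45a and Ccng1 were at -0.33 (SE 0.28) and -0.28 (SE 0.25), Btg2 at -0.07 (SE 0.22) and the p53 inhibitor Mdm4 at -0.13 (SE 0.23). Mdm2, the 1 higher gene, was at 0.06 (SE 0.23), and Sesn1 at -0.08 (SE 0.36). The other probe sets of Ccng1 were at -0.11 and 0.08, that of Btg2 at -0.43 and that of Mdm4 at -0.10. That of Mdm2 was at 0.59 and those of Sesn1 at 0.12 and 0.40, so the probe sets of this list did not share a direction.

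Downstream of the pocket proteins, 2 of the 5 DREAM genes tested were higher and 3 lower, with a median of -0.10. Lin9 was at -0.17 (SE 0.25), without overlap, Mybl2 at -0.31 (SE 0.43), Lin37 at 0.19 (SE 0.27) and the E2F partner Tfdp1 at -0.10 (SE 0.23). Of 17 S phase targets of E2F, 6 were higher and 11 lower, with a median of -0.05 and a range of -0.32 to 0.28. Cdt1, a replication licensing factor, was at -0.32 (SE 0.21), and Pola1, the catalytic subunit of DNA polymerase alpha, at 0.28 (SE 0.28). Thymidine kinase (Tk1) was at 0.27 (SE 0.27) and the primase gene Prim1, whose groups did not overlap, at -0.21 (SE 0.21). On the other Prim1 probe set the groups overlapped, at -0.04 (SE 0.25).

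**Figure D5:**
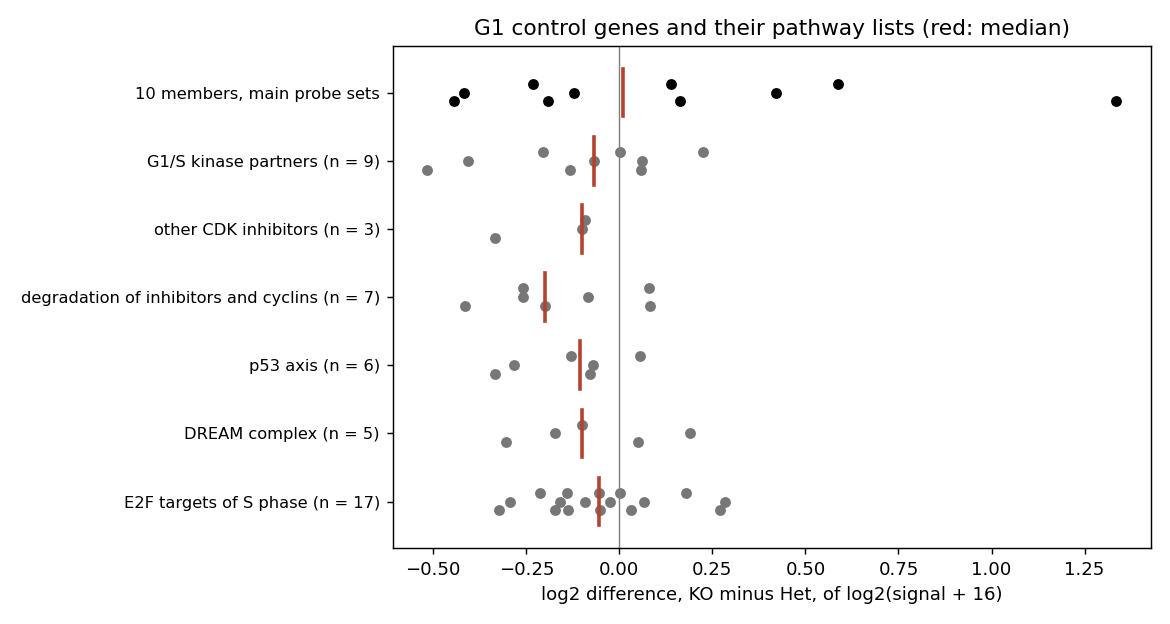
Log2 difference, KO minus Het, of log2(signal + 16) for the main probe sets of the 10 genes (black) and for the tested genes of 6 pathway lists (grey), 1 point per gene, with red bars at the median of each row. Ccnd1, at 1.33, is the point farthest from 0, and the medians lie between -0.20 and 0.01.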

How the data were processed

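Signals of 22690 Affymetrix probe sets in 6 lung metastases were analysed. Intensity values were deposited by the authors on a linear scale; MAS5 and Affymetrix Expression Console are named in the submitters' processing notes, without versions. Without detection calls, dim probe sets could not be judged against background. Precision is limited by the number of arrays.

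The 64 control probe sets and the 40% of the rest with the lowest mean log2(signal + 16) were left out of tests, which kept 13575. Symbols came from the platform annotation (20380 probe sets with 1 symbol, 691 with several, 1555 with none). The 3 Het arrays, which share a title number, were averaged into 1 sample, assumed to vary like a KO sample, and compared with 3 KO samples by limma 3.58.1 in R 4.3.3 (lmFit, eBayes with trend, Benjamini-Hochberg adjustment over all 13575). The procedure was run on simulated arrays, drawn independently and with planted changes larger than that of any member. That simulation cannot show how the procedure handles Het arrays of a shared origin or changes of the size described here. SD is over 3 arrays. SE is that of the fit, in which only the KO samples give a spread within a group.

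The members, lists and alternatives were chosen with earlier results of these data known. Named genes were all members, up to 4 of each pathway list by absolute moderated t, the neighbours of Ccnd1 and the 5 probe sets most correlated with it. Of the p53 axis all tested genes were named. Neighbours and promoters came from RefSeq tables of the GRCm38.p6 assembly; the sources used here name no build for the values. Alternatives covered the unit of replication, pseudocount, filter, scaling, trend and leaving out each array.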

Additional observations from a re-analysis of the deposited data

How the results depend on the processing

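No probe set of a member passed under any of the 15 alternatives run, and limma called 0 of all probe sets under each. The main probe sets of Ccnd1, Ccnd3, Cdk4, Cdk6, Rb1, Rbl1, Cdkn1a and Cdkn1b kept their sign throughout. Those of Ccnd1, Rb1, Rbl1 and Cdkn1b did not overlap between the groups, so leaving out an array could not turn their sign. Blocking at random on the number in the titles gave a lowest limma adjusted p of 0.960 over all probe sets. The median of the 10 main probe sets was 0.01; it was -0.19 with the lowest 60% of probe sets left out, which kept 7 of the 10, -0.069 with array medians centred, which moved the median of all probe sets to -0.10, and -0.13 to 0.030 when arrays were left out in turn. With all arrays and the other settings, main probe sets without overlap numbered 4 or 5 of 10, beside 14.4% to 17.0% of all probe sets, and with the lowest 60% left out 4 of 7, beside 17.3%. With an array left out they numbered 4 to 6 of 10, beside 23.1% to 36.5% of all; the 2 counts of 6 stood beside 26.8% without Het replicate 1 and 27.6% without Het replicate 2.

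The sign turned for the following probe sets, and the cause was not tested. The main Ccnd2 probe set was at -0.097 without KO replicate 2 (0.59 at most, without KO replicate 3) and the main Rbl2 one at 0.013 without KO replicate 3. Cdk4 1422439_a_at was at 0.045 without KO replicate 1, 0.0088 without Het replicate 2 and -0.12 without KO replicate 2. Cdk4 1422440_at was at -2.1e-05 with array medians centred, -0.027 without KO replicate 3, -0.0041 without Het replicate 1 and 0.25 without KO replicate 1. Rbl1 1425166_at was at -0.11 with quantile normalization, -0.069 with array medians centred, -0.057 without KO replicate 3, -0.094 without Het replicate 3 and 0.098 without Het replicate 2. The dim Ccnd2 1448229_s_at was at 0.017 with a pseudocount of 64, 0.41 without KO replicate 3, 0.14 without Het replicate 1, 0.042 without Het replicate 3 and -0.32 without KO replicate 1. The dim Ccnd2 1416124_at was at -0.021 without KO replicate 1, -0.21 without Het replicate 2 and 0.35 without Het replicate 3, and the dim Cdkn1b 1419497_at at 0.067 without KO replicate 1 and -0.57 without KO replicate 2. No paired analysis was possible because the labels do not pair KO with Het arrays, whose titles carry different numbers.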
